A study of Rattus norvegicus with 10 samples.

Results

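The genes of the rat major histocompatibility complex (MHC), which carry the prefix RT1, and the genes that load and control MHC molecules were examined in fetal hearts of control (CON) and hyperglycemic (HG) pregnancies. Members were all genes listed with a symbol beginning with RT1-, together with B2m, Tap1, Tap2, Tapbp, Psmb8, Psmb9, Psmb10, Cd74, Ciita and Nlrc5. Of the 18025 genes listed, 48 were members, namely 28 RT1 class I genes, 10 RT1 class II genes and 10 genes of antigen processing and control. The filter was an average of 0.1 FPKM or more across all 10 libraries. It was met by 14542 genes, among them 34 members (20 class I, 6 class II and 8 processing and control genes). FPKM is the number of fragments corrected for the length of the gene and for library size, so that it can be compared between genes of different length.

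The hearts came from wild-type Sprague-Dawley fetuses at embryonic day 19.5. Dams of both groups were 3 months old. HG dams received streptozotocin, a toxin of the insulin-producing beta cells, in citric acid buffer on 3 consecutive days, and CON dams the buffer alone. Glucose was checked 7 days later, a level above 16 mM being required of HG dams. The study's methods place the injections after mating, whereas its introduction speaks of hyperglycemia before pregnancy. Each group had 5 libraries of messenger RNA. The labels and the study's methods name hearts as the source, whereas a figure legend of the study speaks of isolated fetal cardiomyocytes. The sources used here do not say whether the libraries of a group came from separate litters, so p-values measure the spread between these libraries, and the sex of the fetuses is not given. Streptozotocin itself and the high glucose it causes cannot be told apart in this design. The depth was 16672876 to 19109844 reads on genes per library. All 12 cardiomyocyte markers were measured, with a summed level of 30656 to 32282 FPKM in CON and 26182 to 30232 FPKM in HG, and 9 of them were lower and 1 higher in HG (limma, adjusted p under 0.05). Over all genes tested, 11.8% were lower and 28.4% higher in HG.

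MHC class I molecules present peptides from inside the cell to CD8 T cells and are read by natural killer cells. Their heavy chain pairs with beta-2-microglobulin, the product of B2m, and peptides cut by the proteasome reach it through the transporter Tap1-Tap2 with the help of tapasin, the product of Tapbp. Class II molecules present peptides taken up from outside and are made chiefly by B cells, dendritic cells and macrophages, with Cd74 as their chaperone and the DM molecule as their peptide editor. In the rat the RT1-A genes are the classical class I genes, and the RT1-CE, RT1-N, RT1-M, RT1-S and RT1-T24 genes lie in regions of mostly non-classical ones. Heart muscle cells are known for low MHC levels. RT1 class I genes are alike in sequence and differ between rat strains, so the assignment of reads to a single gene of the family is uncertain, and the reference genome is that of a BN rat and not of a Sprague-Dawley rat.

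All 38 RT1 genes lie on chromosome 20. The 12 RT1-CE genes follow each other without another listed gene between them in the RefSeq order of assembly GRCr8. Of the 48 members, 42 have a promoter entry in RefSeq (GRCr8). The 250 bases before the annotated start are shown for RT1-CE16, the most abundant class I gene, for RT1-CE15 and RT1-CE12, which stood on opposite sides of the test's threshold, for RT1-CE5, which varied least of the RT1-CE genes, and for the class II gene RT1-Ba. Each is written 5′ to 3′ along the gene, and capitals mark the motifs that were searched.
RT1-CE16 (chr20:3265444-3265693, - strand): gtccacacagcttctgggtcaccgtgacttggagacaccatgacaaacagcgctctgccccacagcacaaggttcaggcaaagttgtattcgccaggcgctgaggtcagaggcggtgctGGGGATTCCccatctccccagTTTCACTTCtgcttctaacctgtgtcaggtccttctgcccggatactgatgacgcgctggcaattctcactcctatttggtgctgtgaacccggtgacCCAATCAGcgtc
RT1-CE15 (chr20:3283771-3284020, - strand): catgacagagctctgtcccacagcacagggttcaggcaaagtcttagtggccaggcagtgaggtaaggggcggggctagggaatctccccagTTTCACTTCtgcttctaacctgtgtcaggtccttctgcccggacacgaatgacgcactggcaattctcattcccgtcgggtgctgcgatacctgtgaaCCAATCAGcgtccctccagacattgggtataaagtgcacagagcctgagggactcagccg
RT1-CE12 (chr20:3347226-3347475, - strand): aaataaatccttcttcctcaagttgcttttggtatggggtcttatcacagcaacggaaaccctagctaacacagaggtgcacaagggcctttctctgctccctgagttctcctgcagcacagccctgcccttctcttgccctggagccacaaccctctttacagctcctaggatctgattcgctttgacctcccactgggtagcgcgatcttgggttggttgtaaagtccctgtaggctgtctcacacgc
RT1-CE5 (chr20:3484091-3484340, - strand): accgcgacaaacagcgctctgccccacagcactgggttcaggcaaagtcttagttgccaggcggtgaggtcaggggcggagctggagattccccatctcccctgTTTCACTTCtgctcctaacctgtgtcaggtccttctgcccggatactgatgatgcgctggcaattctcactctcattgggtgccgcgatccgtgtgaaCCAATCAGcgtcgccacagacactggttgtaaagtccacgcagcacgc
RT1-Ba (chr20:4576807-4577056, + strand): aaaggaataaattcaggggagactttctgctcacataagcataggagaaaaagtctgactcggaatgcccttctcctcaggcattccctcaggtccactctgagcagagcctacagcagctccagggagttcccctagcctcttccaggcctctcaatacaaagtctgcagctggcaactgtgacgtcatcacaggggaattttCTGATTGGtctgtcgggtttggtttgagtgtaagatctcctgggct
The motifs were GGGGATTCC (a form of the NF-kB site of the class I enhancer A), GAAGTGAAA (part of an interferon-stimulated response element) and CTGATTGG (a Y box, the inverted CCAAT element of MHC promoters), each looked for on both strands. They do not overlap in the promoters shown. RT1-CE16 holds all 3, with the NF-kB site beginning 131 bases, the interferon element 110 bases and the Y box 12 bases before the start. RT1-CE15 and RT1-CE5 hold the interferon element and the Y box, RT1-Ba the Y box alone and RT1-CE12 none of the 3. GGGGATTCC was present in 9 of the 25 class I promoters, in 0 of the 9 class II promoters and in 0.242% of all 33469 promoters of the same length. GAAGTGAAA was present in 10 of 25 class I promoters, in 0 of 9 class II promoters and in 0.382% of all. CTGATTGG was present in 8 of 25 class I and 7 of 9 class II promoters, and in 3.19% of all. The promoters of RT1-CE16 and RT1-CE13 share 224 of 250 bases (89.6%), as do those of RT1-CE1 and RT1-CE12 and those of RT1-A2 and RT1-A3. RT1-M6-1 and RT1-M6-2 share 242 bases (96.8%), and the median over all 561 pairs of RT1 promoters was 52.8%.

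Levels of class I genes were low apart from 1 gene. RT1-CE16 had a mean of 18.6 FPKM, followed by RT1-T24-4 with 4.08, RT1-T24-1 with 3.46, RT1-N3 with 2.59, RT1-S3 with 2.35 and RT1-CE15 with 2.05 FPKM. Every other class I gene had a mean below 1 FPKM, including the classical genes RT1-A1, RT1-A2 and RT1-A3 with 0.204, 0.302 and 0.338 FPKM. By contrast B2m, which serves all class I heavy chains, had a mean of 61.9 FPKM.

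RT1-CE16 was also the gene that differed most between libraries of the same group among the class I genes. Its level was 22.3, 45.5, 22.9, 41.5 and 0 FPKM in CON 1 to CON 5. It was 8.40, 6.38, 7.23, 26.2 and 5.36 FPKM in HG 1 to HG 5. CON 5 had no read on the gene where the other CON libraries had 447 to 919 reads, and 0 reads allow a level of up to 0.153 FPKM (3 reads, counting error only). HG 4, with 512 reads, lay above CON 1 and CON 3, and the other HG libraries had 99 to 178 reads. The mean of CON was 26.4 ± 18.2 FPKM and that of HG 10.7 ± 8.71 FPKM (SD over 5 libraries), the groups overlapped, and the log2 fold change of FPKM + 0.1 (HG minus CON) was -0.15 ± 1.39 (SE; limma, adjusted p = 0.943). The residual SD of this fit was 2.72 on the log2 scale, against a median of 0.12 over all genes tested. Without CON 5 the log2 fold change was -1.81 (adjusted p = 0.0052), so that this library decides the value.

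RT1-CE15, the neighbour of RT1-CE16, showed the same libraries apart. It was at 2.12, 4.51, 3.35, 6.64 and 0 FPKM in CON 1 to CON 5. In HG 1 to HG 5 it was at 0.0937, 0.0974, 0.155, 3.55 and 0 FPKM. The level of HG 4 was within the range of CON, and CON 5 and HG 5 had 0 reads. The log2 fold change was -2.54 ± 1.15 (SE) and did not pass the test (limma, adjusted p = 0.0969). It passed without CON 5 (-3.60, adjusted p = 0.0066) and without HG 4 (-3.42, adjusted p = 0.020).

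**Figure D1:**
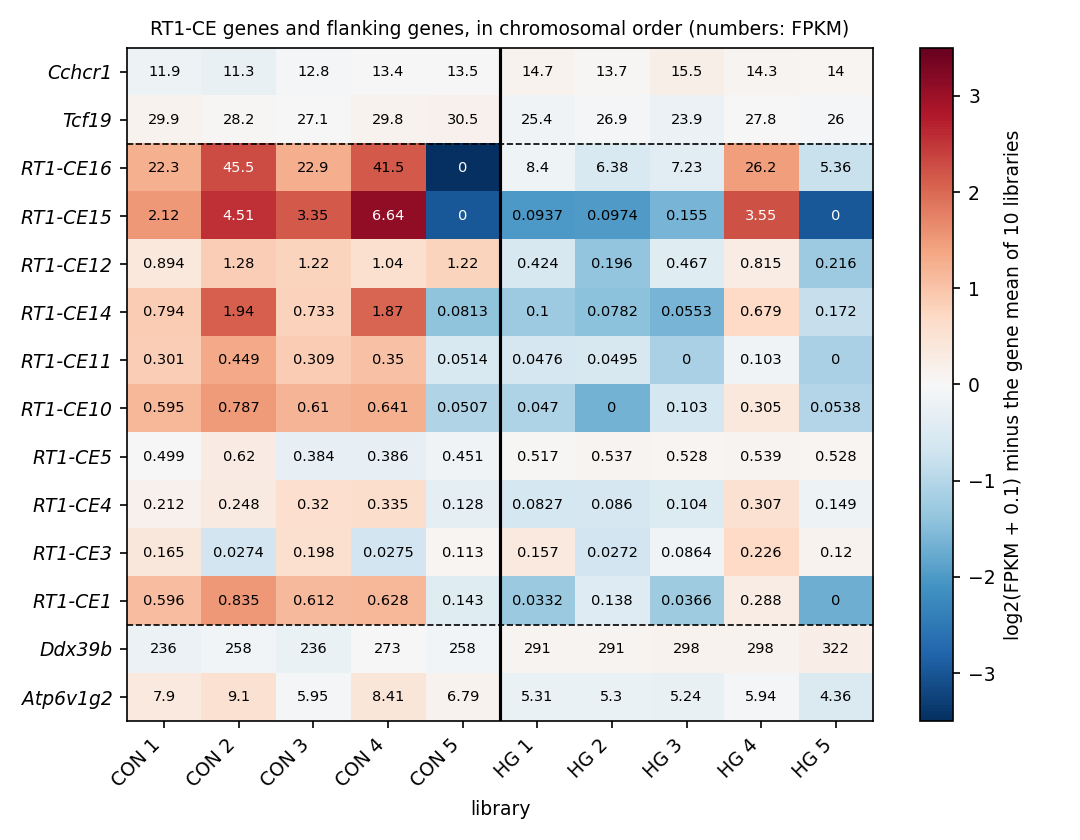
FPKM of the 10 RT1-CE genes above the filter (rows, in chromosomal order) and of 2 nearby genes on each side, in the 10 libraries (columns, CON left and HG right of the line). The colour is log2(FPKM + 0.1) minus the gene's mean over the libraries, and CON 5 is low and HG 4 high within its group for several RT1-CE genes, while Cchcr1, Tcf19 and Ddx39b vary by no more than 1.37 times and Atp6v1g2 by 2.09 times.

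Of the RT1-CE genes above the filter, 5 fell in HG and the other 5 did not pass the test. Over all genes tested, 40.1% passed and 11.8% passed as lower in HG. RT1-CE12 fell from 0.894, 1.28, 1.22, 1.04 and 1.22 FPKM in CON 1 to CON 5 to 0.424, 0.196, 0.467, 0.815 and 0.216 FPKM in HG 1 to HG 5. Its groups did not overlap, and its log2 fold change was -1.35 ± 0.27 (SE; limma, adjusted p = 0.0020). In RT1-CE12 the level of CON 5 was like that of the other CON libraries, unlike in RT1-CE16 and RT1-CE15.
RT1-CE14 was at 0.794, 1.94, 0.733, 1.87 and 0.0813 FPKM in CON 1 to CON 5 and at 0.10, 0.0782, 0.0553, 0.679 and 0.172 FPKM in HG 1 to HG 5. CON 5 lay among the HG libraries, and the log2 fold change of -1.77 ± 0.62 (SE) was near the threshold (adjusted p = 0.039). The test was passed without CON 5 (adjusted p = 0.0026) or HG 4 (adjusted p = 0.014), and was not passed when any of the other 8 libraries was left out (adjusted p = 0.063 to 0.092). Nor was it passed in limma without a filter (adjusted p = 0.058), without a trend (adjusted p = 0.066) or with voom (adjusted p = 0.070).
RT1-CE1 was at 0.596, 0.835, 0.612, 0.628 and 0.143 FPKM in CON 1 to CON 5 and at 0.0332, 0.138, 0.0366, 0.288 and 0 FPKM in HG 1 to HG 5. Only HG 4 exceeded the lowest CON library, CON 5. The log2 fold change was -1.79 ± 0.42 (SE; adjusted p = 0.0049), on 0 to 24 reads per library.
RT1-CE10 was at 0.595, 0.787, 0.610, 0.641 and 0.0507 FPKM in CON 1 to CON 5 and at 0.0470, 0, 0.103, 0.305 and 0.0538 FPKM in HG 1 to HG 5. HG 3, HG 4 and HG 5 lay above CON 5 and below the other 4 CON libraries, though CON 5 and HG 5 each had 1 read. The log2 change was -1.61 ± 0.49 (SE; adjusted p = 0.020), on 0 to 16 reads per library.
RT1-CE11 was at 0.301, 0.449, 0.309, 0.350 and 0.0514 FPKM in CON 1 to CON 5 and at 0.0476, 0.0495, 0, 0.103 and 0 FPKM in HG 1 to HG 5. HG 4 alone lay above CON 5, and the log2 change was -1.42 ± 0.35 (SE; adjusted p = 0.0064), on 0 to 9 reads per library.

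RT1-CE5, RT1-CE4 and RT1-CE3 had 1 to 95 reads per library. RT1-CE5 varied least of the RT1-CE genes, at 0.384 to 0.620 FPKM in CON and 0.517 to 0.539 FPKM in HG (log2 fold change 0.17 ± 0.14, adjusted p = 0.377). RT1-CE4 was at 0.128 to 0.335 FPKM in CON and 0.0827 to 0.307 FPKM in HG, with CON 5 the lowest CON and HG 4 the highest HG library (log2 fold change -0.54 ± 0.27, adjusted p = 0.130, and -0.74 with adjusted p = 0.029 without HG 4). RT1-CE3 was at 0.0274 to 0.198 FPKM in CON and 0.0272 to 0.226 FPKM in HG (log2 fold change 0.13 ± 0.33, adjusted p = 0.773). RT1-CE13 and RT1-CE2 stayed under the filter with 1 and 7 reads in all libraries together.
CON 5 was the lowest CON library in 7 of these 10 genes, whereas it was the lowest in 20.2% of all genes tested. HG 4 was the highest HG library in 10 of the 10 genes, against 16.2% of all genes tested. CON 2 was the highest CON library in 7 of the 10, against 21.8%. Among the 10 class I genes outside the RT1-CE group, CON 5 was the lowest CON library in 2 and HG 4 the highest HG library in 0. There HG 4 was the lowest HG library in 5, against 24.7% of all genes tested. The RT1-CE genes share sequence, so these 10 are not independent observations. RT1-CE16 and RT1-CE15, in which CON 5 and HG 4 were first seen to stand apart, are among the 10, so the counts are not a test. Some ranks are near ties, as RT1-CE5 was at 0.539 FPKM in HG 4 and 0.537 FPKM in HG 2. RT1-CE11 had 2 reads in HG 4 and 1 read in HG 1 and in HG 2. Of the genes around the RT1-CE group, Tcf19, Cchcr1, Vars2, Ddx39b and Nfkbil1 had a highest level over the 10 libraries of 1.23 to 1.46 times the lowest, and Atp6v1g2 of 2.09 times. Psors1c2 and Tnf, also nearby, were low, at 0 to 0.560 and 0 to 0.369 FPKM, and CON 5 and HG 2 to HG 5 had no read on Psors1c2.

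The summed class I level followed RT1-CE16. The 28 class I genes together had 45.5, 72.6, 46.1, 68.1 and 17.2 FPKM in CON 1 to CON 5. They had 24.4, 24.0, 22.5, 45.3 and 23.0 FPKM in HG 1 to HG 5. RT1-CE16 held between 0% (CON 5) and 62.6% (CON 2) of that sum. Without it the sum of CON was 23.5 ± 3.94 FPKM and that of HG 17.1 ± 1.55 FPKM (SD over 5 libraries), and the groups still overlapped, CON 5 having 17.2 FPKM.

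**Figure D2:**
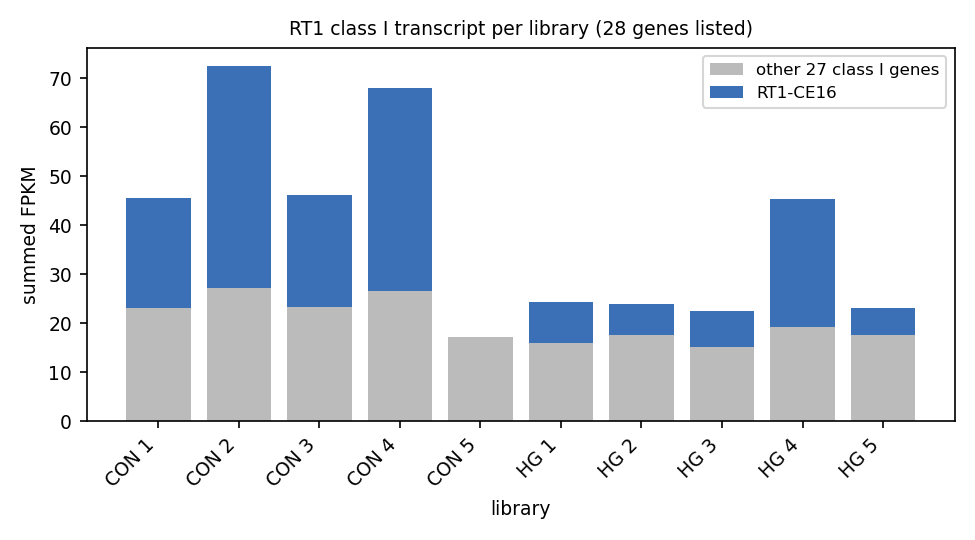
Summed FPKM of the 28 RT1 class I genes in each library, with RT1-CE16 in blue and the other 27 genes in grey. RT1-CE16 makes up 62.6% of the bar of CON 2 and 0% of that of CON 5.

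Outside the RT1-CE group, RT1-T24-3 and RT1-T24-4 fell and RT1-N2 and RT1-N3 rose in HG.
RT1-T24-3 was at 0.590, 0.496, 0.652, 0.497 and 0.720 FPKM in CON 1 to CON 5 and at 0.387, 0.179, 0.284, 0.372 and 0.296 FPKM in HG 1 to HG 5. The groups did not overlap, and the log2 fold change was -0.79 ± 0.18 (SE; limma, adjusted p = 0.0043).
RT1-T24-4 was at 4.94, 4.27, 4.63, 3.99 and 4.47 FPKM in CON 1 to CON 5 and at 3.48, 3.78, 3.66, 3.11 and 4.49 FPKM in HG 1 to HG 5. HG 5 alone lay within the range of CON. The change was -0.27 ± 0.09 on the log2 scale (SE; adjusted p = 0.039), and the test was not passed when CON 1, 2, 3 or 5 or HG 1, 2, 3 or 4 was left out (adjusted p = 0.052 to 0.094). Nor was it passed in limma without a filter (adjusted p = 0.055) or with voom (adjusted p = 0.063).
RT1-T24-1 was at 2.78 to 3.91 FPKM in CON and 2.89 to 3.85 FPKM in HG (log2 fold change -0.07 ± 0.10, adjusted p = 0.647).
RT1-N2 was at 0.176, 0.486, 0.0402, 0.136 and 0.120 FPKM in CON 1 to CON 5 and at 0.520, 0.733, 0.307, 0.382 and 0.702 FPKM in HG 1 to HG 5. CON 2 lay among the HG libraries and the other 4 CON libraries below them, and the log2 fold change was 1.22 ± 0.34 (SE; adjusted p = 0.013).
RT1-N3 was at 2.45, 2.44, 2.49, 2.13 and 1.74 FPKM in CON 1 to CON 5 and at 3.01, 3.32, 2.64, 2.59 and 3.08 FPKM in HG 1 to HG 5. The groups did not overlap, and the log2 fold change was 0.37 ± 0.11 (SE; adjusted p = 0.018), but the test was not passed after division by median-of-ratios factors (0.29, adjusted p = 0.064) or quantile normalization (0.27, adjusted p = 0.075).

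The classical class I genes did not pass the test. RT1-A1 was at 0.0940 to 0.219 FPKM in CON and at 0 to 0.497 FPKM in HG, the 0 being HG 4 (log2 fold change 0.11 ± 0.42, adjusted p = 0.858). RT1-A2 was at 0.287 to 0.469 FPKM in CON and 0.0228 to 0.355 FPKM in HG, and its lowest library, HG 1, had 1 read (log2 fold change -0.64 ± 0.33, adjusted p = 0.140). RT1-A3 was at 0 to 0.887 FPKM in CON and 0 to 0.395 FPKM in HG (log2 fold change -0.90 ± 0.58, adjusted p = 0.242). The libraries without a read on RT1-A3 were CON 5 and HG 4, and without CON 5 its log2 fold change was -1.46 (adjusted p = 0.017). RT1-M3-1, the rat form of a class I molecule that binds N-formyl peptides, was at 0.584 to 1.04 FPKM in CON and 0.522 to 1.23 FPKM in HG (log2 fold change -0.11 ± 0.23, adjusted p = 0.725). RT1-S3 was at 2.09 to 3.38 FPKM in CON and 1.62 to 2.90 FPKM in HG (log2 fold change -0.28 ± 0.16, adjusted p = 0.186). Besides RT1-CE13 and RT1-CE2, the class I genes RT1-M1-2, RT1-M1-4, RT1-M2, RT1-M6-1, RT1-M6-2 and RT1-S2 stayed under the filter, with 1 to 9 reads over all libraries.

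By count, 9 of the 20 class I genes tested passed at an adjusted p under 0.05, of which 2 were higher and 7 lower in HG. Of all 14542 genes tested, 40.1% passed, with 28.4% higher and 11.8% lower in HG. The median log2 fold change was -0.41 for the 20 class I genes and 0.09 for all genes tested. The threshold for differentially expressed genes, an adjusted p under 0.05 with an absolute log2 fold change above 1, was met by 6 class I genes, or 30.0% of those tested, against 1.94% of all genes. RT1-N2 was the higher one (0.866% of all genes), and RT1-CE1, RT1-CE10, RT1-CE11, RT1-CE12 and RT1-CE14 were lower (1.07% of all genes). The groups did not overlap in 3 of 20 class I genes (15.0%) and in 27.4% of all genes. The 6 genes had means of 0.166 to 0.778 FPKM. RT1-CE1 and RT1-CE11 met the filter through CON alone, as their HG means were 0.0991 and 0.0400 FPKM. Genes that enter in this way are high in CON beforehand, and the lower ones share sequence as RT1-CE genes. The share of 30.0% is thus not a test against all genes.

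**Figure D3:**
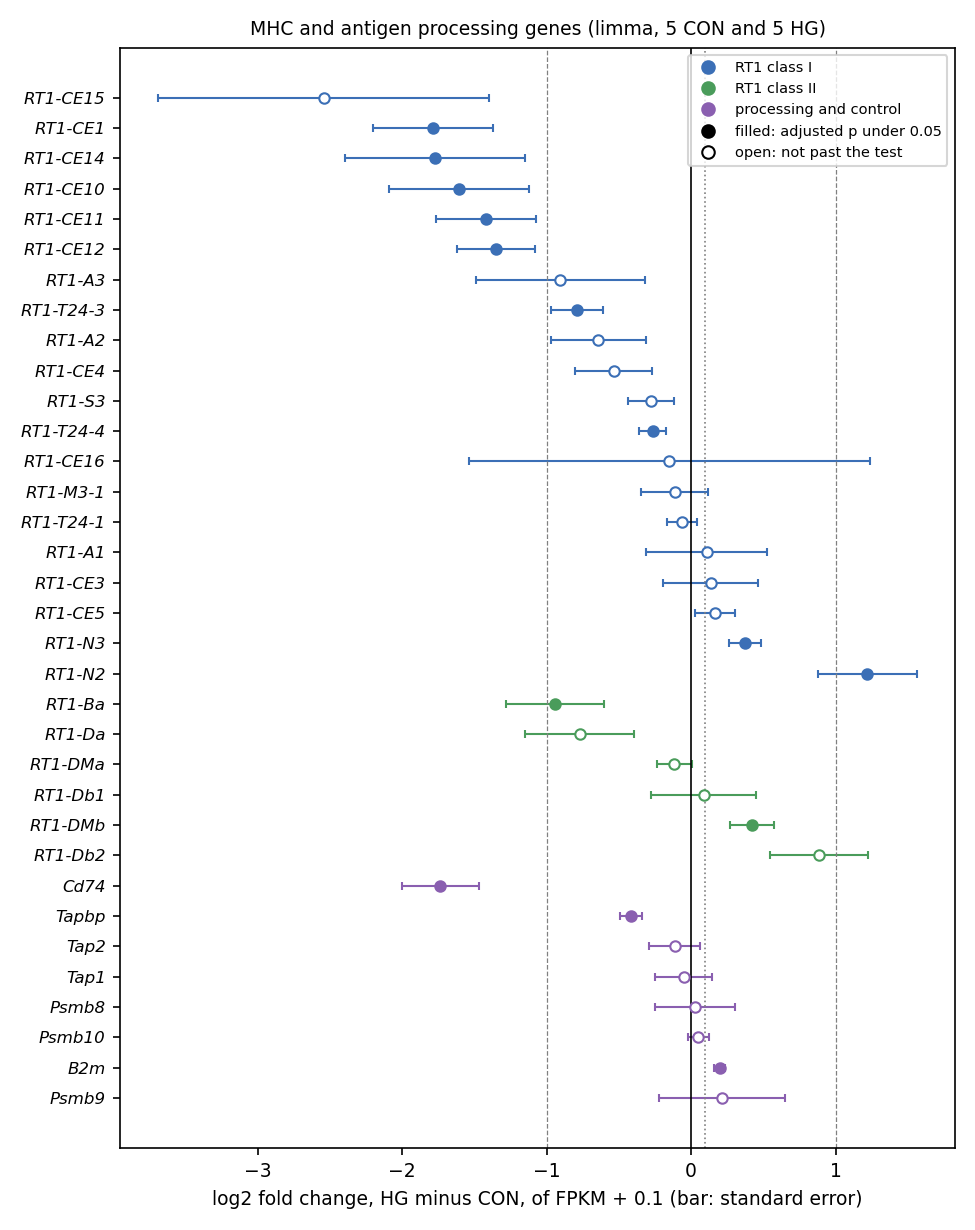
Log2 fold change of FPKM + 0.1, HG minus CON, with its standard error for the 34 members above the filter, by class. Filled points have an adjusted p under 0.05, the dotted line is the median of all genes tested (0.09), dashed lines mark -1 and 1, and the widest bars belong to RT1-CE16 and RT1-CE15.

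Class II genes other than the DM genes were near the limit of detection. The summed level of the 8 class II genes without RT1-DMa and RT1-DMb was 0.980 ± 0.261 FPKM for CON libraries and 0.742 ± 0.155 FPKM for HG libraries (SD over 5), and the groups overlapped. RT1-Ba, the alpha chain of the RT1-B molecule, was at 0.247, 0.245, 0.101, 0.344 and 0.0505 FPKM in CON 1 to CON 5 and at 0, 0.0972, 0.103, 0 and 0.0536 FPKM in HG 1 to HG 5. These values rest on 0 to 7 reads per library, and the groups overlapped. The HG mean of RT1-Ba, 0.0508 FPKM, was under the filter level, so the gene was tested through CON alone. On the log2 scale the difference was -0.94 ± 0.34 (SE; limma, adjusted p = 0.044), and the test was not passed without CON 1, CON 2, HG 1, HG 4 or HG 5 (adjusted p = 0.065 to 0.098), while without CON 4 the gene fell under the filter. Nor was it passed with a pseudocount of 1 (adjusted p = 0.052) or 0.01 (adjusted p = 0.055). With voom (adjusted p = 0.055) and with the replicate number as a block (adjusted p = 0.085) RT1-Ba also failed the test. The alpha chain RT1-Da of the RT1-D molecule was at 0.0452 to 0.546 FPKM in CON and 0.0862 to 0.224 FPKM in HG (log2 fold change -0.77 ± 0.38, adjusted p = 0.123, and -1.13 with adjusted p = 0.0058 without CON 2). Its beta chains were RT1-Db1, at 0.0432 to 0.560 FPKM in CON and 0.123 to 0.445 FPKM in HG (log2 fold change 0.09 ± 0.36, adjusted p = 0.873), and RT1-Db2, at 0 to 0.105 FPKM in CON and 0.0362 to 0.345 FPKM in HG (log2 fold change 0.88 ± 0.34, adjusted p = 0.054). RT1-Db2 passed the test without CON 2 (1.03, adjusted p = 0.038) or HG 4 (1.11, adjusted p = 0.017). Its CON mean was 0.0423 FPKM, so RT1-Db2 met the filter through HG alone. RT1-Bb, RT1-DOa, RT1-DOb and RT1-Ha stayed under the filter with 1 to 21 reads over all libraries. The DO genes encode the inhibitor of DM.

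The DM genes, whose product exchanges peptides on class II molecules in endosomes, were the most abundant of class II. RT1-DMa was at 5.48, 4.08, 6.61, 4.85 and 5.19 FPKM in CON 1 to CON 5 and at 4.57, 5.30, 4.66, 5.52 and 3.97 FPKM in HG 1 to HG 5. The groups overlapped over most of their range (log2 fold change -0.12 ± 0.12, SE; adjusted p = 0.478). RT1-DMb, the beta chain, was at 6.19, 6.19, 6.22, 5.99 and 5.24 FPKM in CON 1 to CON 5 and at 8.25, 10.9, 8.11, 5.08 and 8.81 FPKM in HG 1 to HG 5. HG 4 was the lowest of the 10 libraries and the other 4 HG libraries were the highest. RT1-DMb rose by 0.42 ± 0.15 on the log2 scale (SE; adjusted p = 0.046), and without HG 4 by 0.58 (adjusted p = 0.00066). Leaving out any other library ended the call (adjusted p = 0.064 to 0.104), as did median-of-ratios factors (0.33, adjusted p = 0.112) and quantile normalization (0.33, adjusted p = 0.113). The call was also lost in limma without a filter (adjusted p = 0.067) and without a trend (adjusted p = 0.074). In all, 2 of 6 class II genes passed the test (RT1-Ba lower, RT1-DMb higher), against 40.1% of all genes, 0 of 6 were without overlap, against 27.4% of all genes, and the median log2 fold change was -0.02.

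Among the processing and control genes, B2m rose and Tapbp and Cd74 fell in HG. B2m was at 58.2, 58.6, 62.0, 54.7 and 54.8 FPKM in CON 1 to CON 5. It was at 66.5, 65.0, 66.1, 65.0 and 67.8 FPKM in HG 1 to HG 5. Every HG library lay above every CON library, and the log2 fold change was 0.20 ± 0.04 (SE; limma, adjusted p = 0.0017), but after median-of-ratios factors it was 0.11 and the test was not passed (adjusted p = 0.052). CON 5 and HG 4, which stood apart in RT1-CE16, did not do so in B2m, and the ratio of RT1-CE16 to B2m was 0.369 to 0.775 in CON 1 to CON 4, 0 in CON 5, 0.402 in HG 4 and 0.0790 to 0.126 in the other HG libraries.
Tapbp, which holds empty class I molecules at the peptide transporter, was at 7.68, 6.96, 8.44, 7.54 and 6.79 FPKM in CON 1 to CON 5 and at 5.48, 5.84, 5.34, 6.30 and 4.99 FPKM in HG 1 to HG 5. The groups did not overlap, and the log2 fold change was -0.41 ± 0.08 (SE; adjusted p = 0.0012).
Cd74, the class II invariant chain, was at 3.03, 2.36, 1.89, 1.79 and 2.51 FPKM in CON 1 to CON 5 and at 0.254, 0.643, 0.561, 0.866 and 1.00 FPKM in HG 1 to HG 5. The highest HG library lay below the lowest CON library, and the log2 fold change was -1.74 ± 0.27 (SE; adjusted p = 0.00033). The CON mean was 2.32 ± 0.501 FPKM and the HG mean 0.665 ± 0.288 FPKM (SD over 5 libraries), on 7 to 79 reads per library, and Cd74 was the 1 gene of this group that met the threshold for differentially expressed genes.

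**Figure D4:**
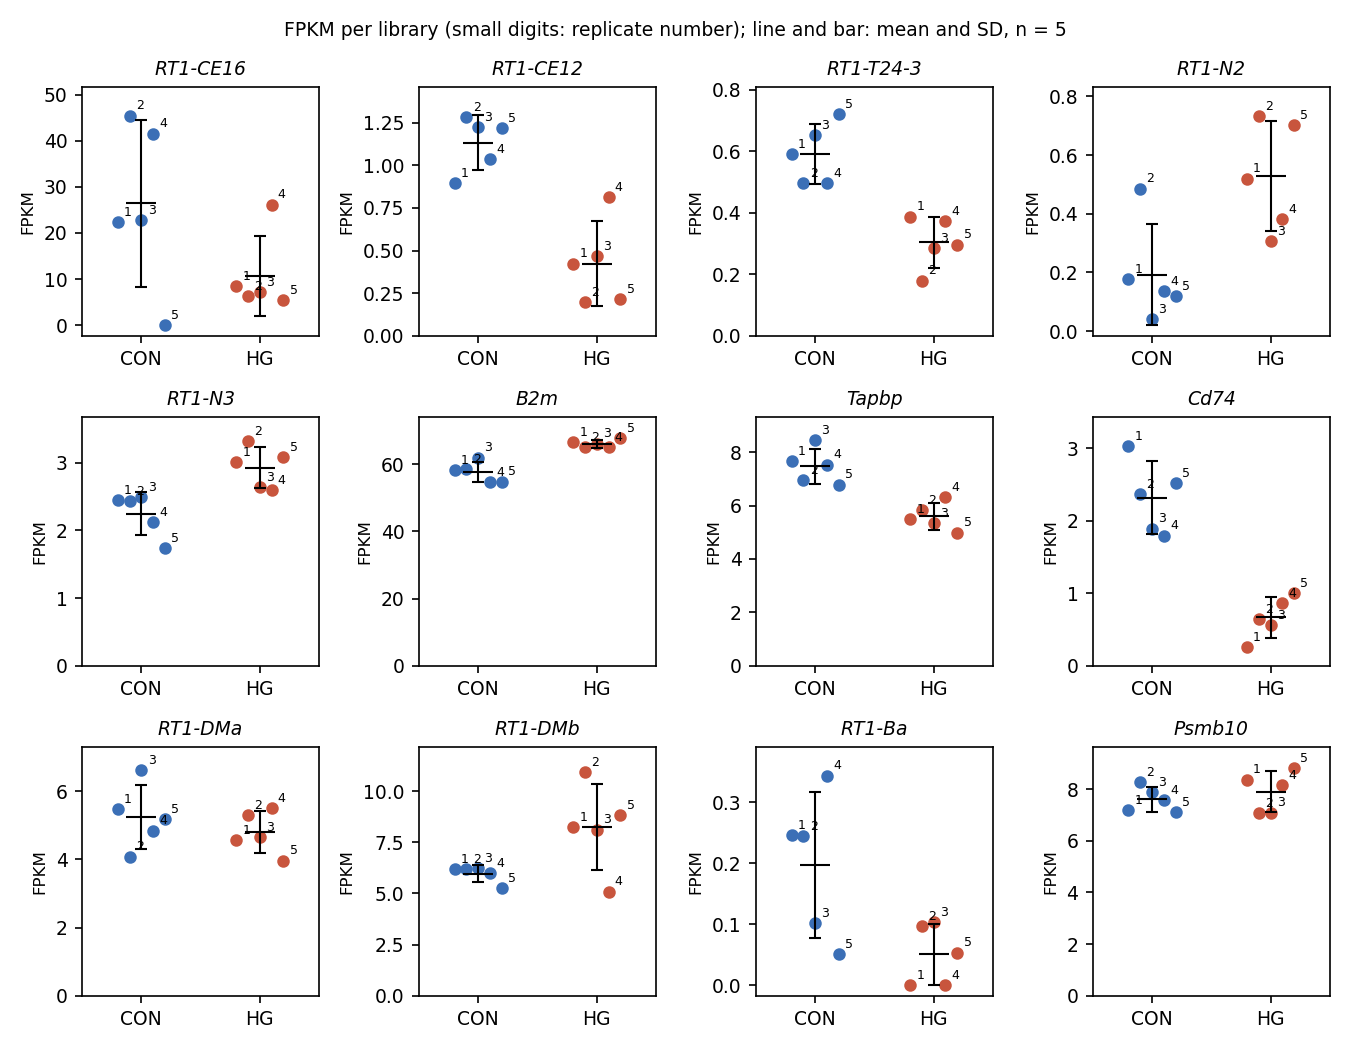
FPKM of 12 members in each of the 5 CON and 5 HG libraries, with small digits for the replicate number and a line and bar for the mean and SD. The groups are apart in RT1-CE12, RT1-T24-3, RT1-N3, B2m, Tapbp and Cd74 and overlap in RT1-CE16, RT1-N2, RT1-DMa, RT1-DMb, RT1-Ba and Psmb10.

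The peptide transporter and the immunoproteasome did not pass the test. Tap1 was at 0.554 to 0.865 FPKM in CON and 0.465 to 1.11 FPKM in HG (log2 fold change -0.05 ± 0.20, adjusted p = 0.860). Tap2 was at 0.474 to 0.888 FPKM in CON and 0.494 to 0.863 FPKM in HG (log2 fold change -0.11 ± 0.17, adjusted p = 0.637). Psmb8, Psmb9 and Psmb10 encode the inducible catalytic subunits that replace Psmb5, Psmb6 and Psmb7 in the immunoproteasome. Psmb10 was at 7.18, 8.28, 7.88, 7.59 and 7.13 FPKM in CON 1 to CON 5 and at 8.38, 7.08, 7.10, 8.16 and 8.82 FPKM in HG 1 to HG 5 (log2 fold change 0.05 ± 0.07, adjusted p = 0.617). Psmb8 was at 0.506 to 1.09 FPKM in CON and 0.371 to 1.05 FPKM in HG (log2 fold change 0.03 ± 0.28, adjusted p = 0.945). Psmb9 was at 0.114 to 1.38 FPKM in CON and 0.360 to 1.09 FPKM in HG (log2 fold change 0.21 ± 0.44, adjusted p = 0.730). As a ratio within each library, which does not depend on scaling, Psmb8 was 0.546 ± 0.190% of Psmb5 for CON and 0.562 ± 0.227% for HG (SD over 5 libraries; two-sided exact permutation test, p = 0.968). Psmb9 was 0.584 ± 0.358% of Psmb6 in CON and 0.590 ± 0.228% in HG (exact permutation test, p = 0.770). Psmb10 was 5.31 ± 0.148% of Psmb7 in CON and 5.28 ± 0.405% in HG (exact permutation test, p = 0.857). Adjusted over the 3 ratios each p was 0.968, and 0.00794 is the smallest p that 5 libraries against 5 allow. Ciita, the master regulator of class II genes, stayed under the filter at 0.0192 to 0.143 FPKM in CON and 0 to 0.0493 FPKM in HG, and Nlrc5, the regulator of class I genes, at 0.00497 to 0.0154 FPKM in CON and 0.00514 to 0.0381 FPKM in HG. In all, 3 of the 8 genes tested passed the test (37.5%, against 40.1% of all genes), 1 higher and 2 lower, and the same 3 were without overlap (27.4% of all genes were).

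Over all 34 members tested, 14 passed (41.2%, against 40.1% of all genes), 4 higher (28.4% of all genes were) and 10 lower in HG (11.8% of all genes were). The scaling moved this split. With median-of-ratios factors 1 member was higher and 10 lower, and under quantile normalization 2 were higher and 10 lower, while over all genes tested the share of calls that were higher in HG was 70.7% without rescaling, 47.4% with those factors and 53.0% under quantile normalization. The groups were without overlap in 6 members (17.6%, against 27.4% of all genes). Without CON 5 the number of members past the threshold for differentially expressed genes was 11 and not 7. Among the 10 lower members, RT1-CE1, RT1-CE11 and RT1-Ba met the filter through CON alone.

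Other genes of the pathways were taken from lists by role, and their counts stand against 28.4% higher and 11.8% lower in HG over all genes tested. Their fold changes are given without rescaling, where the median over all genes tested was 0.09 on the log2 scale. With median-of-ratios factors that median was 0.007, so small rises depend on the scaling. Of 16 partners of class I loading and of the proteasome, 1 was higher and 6 lower in HG. The chaperone Hspa5 fell from 519 ± 46.5 to 287 ± 31.5 FPKM (SD over 5 libraries; -0.86 on the log2 scale, limma, adjusted p = 9.76e-06). Calr, the chaperone of the class I loading complex, fell from 551 to 400.3 FPKM (-0.46 on the log2 scale, adjusted p = 1.98e-05), and Pdia3, its disulfide isomerase partner, by 0.24 on the log2 scale. The aminopeptidase Npepps rose by 0.20 on the log2 scale. Of 12 partners of the class II pathway, 2 were higher and 1 lower. Marchf1, a ubiquitin ligase that removes class II molecules from the cell surface, rose from 0.525 ± 0.116 to 1.27 ± 0.199 FPKM (1.14 on the log2 scale, adjusted p = 0.000134), and the cathepsin Ctsd fell by 0.29 and Ctsb rose by 0.13 on the log2 scale. Of 16 transcription factors and cofactors of MHC genes, 3 were higher and 2 lower. Rfx5, which binds the X box of MHC promoters, rose from 8.57 ± 0.796 to 11.7 ± 1.29 FPKM (0.44 on the log2 scale, adjusted p = 0.0013), and Nfyb, a subunit of the factor that binds the Y box, rose by 0.29 on the log2 scale. The acetyltransferase Kat2b fell by 0.23 on the log2 scale. Of 8 interferon receptor and signalling genes, 1 was higher, the interferon gamma receptor chain Ifngr2 (log2 fold change 0.22, adjusted p = 0.0021). Of 21 genes of the interferon response, 2 were higher and 5 lower. Bst2 fell from 10.7 ± 1.67 to 4.52 ± 1.64 FPKM (-1.29 on the log2 scale, adjusted p = 0.000575) and Rsad2 from 1.70 ± 0.294 to 0.770 ± 0.150 FPKM (-1.05 on the log2 scale, adjusted p = 0.000279), both of them interferon-induced antiviral genes. Ifi44, an interferon-induced gene, rose by 0.60 and Sting1, an adaptor of cytosolic DNA sensing, by 0.36 on the log2 scale.

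Cells that carry class II molecules were followed by their markers, whose counts stand against the same shares over all genes (28.4% higher and 11.8% lower). With RNA taken from many cells at once, fewer cells of a type and less RNA per cell cannot be told apart. Of 16 macrophage markers 4 were higher and 2 lower in HG, and their summed level was 56.8 to 73.9 FPKM in CON and 66.0 to 82.1 FPKM in HG. Adgre1, the F4/80 antigen, rose by 1.00 and the lysosomal Cd68 by 0.59 on the log2 scale, whereas Cd163, a hemoglobin scavenger receptor, fell from 0.721 ± 0.204 to 0.157 ± 0.119 FPKM (-1.77 on the log2 scale, adjusted p = 0.000865). Of 9 markers of all leukocytes, Cd37 was higher and Cd52 lower, and their summed level was 20.8 to 30.1 FPKM in CON and 19.7 to 23.6 FPKM in HG. Cd52 fell from 10.8 ± 3.82 to 4.27 ± 0.515 FPKM (-1.26 on the log2 scale, adjusted p = 0.000418), and Ptprc, the common leukocyte antigen, was at 0.337 ± 0.145 and 0.443 ± 0.0727 FPKM (adjusted p = 0.205). Of 5 dendritic cell markers tested, Itgax was higher, and the summed level of all 8 was 6.04 to 6.86 FPKM in CON and 6.66 to 8.45 FPKM in HG. B cell markers summed to 0.387 to 1.11 FPKM in CON and 0.321 to 1.01 FPKM in HG, with 0 of 3 called. Of T and NK cell markers 1 of 4 tested was higher and none lower, with a summed level of 2.25 to 3.56 FPKM in CON and 2.95 to 3.49 FPKM in HG. Among other cells, red blood cell markers were lower in 9 and higher in 3 of 14 tested, with a summed level of 10578 to 19994 FPKM in CON and 8347 to 11693 FPKM in HG, and fibroblast markers lower in 4 and higher in 2 of 8, with 1724 to 2010 FPKM in CON and 1556 to 1785 FPKM in HG. The part of these cell types and of the cardiomyocytes in the differences of Cd74, Tapbp and the RT1 genes was not tested.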

How the data were processed

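RNA sequencing values of 5 CON and 5 HG fetal rat hearts were used, made from stranded mRNA libraries. Per the submitters' processing notes, fastp, HISAT2, HTSeq and R 3.2.0 were used with build mRatBN7.2. Although the study's methods describe RNA pooled from the 10 samples, values differ between the deposited libraries. The authors deposited FPKM, in which reads were divided by gene length and library size. How reads matching several genes were counted is not given in the sources used here, and this bears on RT1 genes. All per-library columns were used (0 unused).

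Every FPKM value was a whole multiple of 1 read in 100% of genes (within 0.05 reads), so reads could be recovered, 17639895 to 18240006 of them in a CON and 16672876 to 19109844 in an HG library. The comparison used limma 3.58.1 in R 4.3.3 on log2(FPKM + 0.1) of genes averaging 0.1 FPKM or more, with a trend on expression and without covariates, and with Benjamini-Hochberg adjustment over all 14542 genes tested. Fold changes on this scale understate those of low genes. The study's methods name DESeq, which takes counts and was not used. The procedure was run on simulated data with the same dispersion for every gene. Genes as variable between libraries as RT1-CE16 were not covered by that run. Single ratios were compared by two-sided exact permutation tests. Python 3.11.15, numpy 2.4.6, pandas 2.3.3, matplotlib 3.10.9 and Biopython 1.88 were used, the last for alignment of promoters.

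The members and lists were chosen with earlier results of these data known. Values per library are given for members with an adjusted p under 0.05 or a mean of at least 5 FPKM, along with RT1-CE15, chosen after its values were seen, and of each list up to 4 genes with the smallest adjusted p are named. Ptprc, Ifi44, Sting1 and the genes around the RT1-CE group were chosen after their values were seen. As alternatives, pseudocounts of 1 and 0.01 were tried, as were no filter, a filter at 1 FPKM, median-of-ratios factors, quantile normalization, no trend, the replicate number as a block, voom on the recovered reads, and each library left out in turn. The values of 2 genes of the lists are not reported here.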

Additional observations from a re-analysis of the deposited data

Results flagged for a closer look

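In 68 groups of 5 libraries (34 members, CON and HG apart), 9 values lay far from the other 4 of their group by Dixon's criterion (gap over range above 0.71). For independent, normally distributed values chance gives this in about 1 of 20 groups. That rate does not carry over to FPKM near 0 or to genes that share sequence. In CON 5, RT1-CE16 and RT1-CE15 were each at 0 FPKM, with the other CON libraries at 22.3 to 45.5 and 2.12 to 6.64 FPKM. Also in CON 5, RT1-CE1 was at 0.143 FPKM (others 0.596 to 0.835), RT1-CE10 at 0.0507 FPKM (others 0.595 to 0.787), RT1-CE11 at 0.0514 FPKM (others 0.301 to 0.449) and RT1-DMb at 5.24 FPKM (others 5.99 to 6.22). In HG 4, RT1-CE16 was at 26.2 FPKM (others 5.36 to 8.40) and RT1-CE15 at 3.55 FPKM (others 0 to 0.155). In CON 1, RT1-M3-1 was at 0.584 FPKM (others 0.982 to 1.04). Of the 9 values 7 belong to RT1-CE genes, which share sequence. What sets CON 5 and HG 4 apart was not tested.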

How the results depend on the processing

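Of 14 members that passed the test, RT1-CE1, RT1-CE10, RT1-CE11, RT1-CE12, RT1-N2, RT1-T24-3, Tapbp and Cd74 kept the call and direction in every alternative in which they could be fitted. RT1-CE1 and RT1-CE11 met the filter through CON alone, and the RT1-CE genes share sequence, so theirs are not separate results. Of 621 values of members under the alternatives, 537 kept direction and side of the threshold, 46 lost the call, 9 gained it and 29 changed sign, none of the last for a called member. With a mean of at least 1 FPKM, 6 class I genes were tested and 2 called, 1 class II gene was called and 1 member met the threshold for differentially expressed genes, fewer genes being tested. At a pseudocount of 1, 1 member met that threshold, since a larger pseudocount shrinks fold changes of low genes. The number of class II genes called was 1 and not 2 with pseudocounts of 1 and 0.01, no filter, median-of-ratios factors, quantile normalization, no trend, the replicate block and voom. Leaving out 1 library gave 7 to 11 class I genes called, 0 to 2 class II genes and 6 to 11 members past the threshold for differentially expressed genes. The log2 ratio (HG minus CON) then ranged from -0.14 to 0.22 for Psmb8 to Psmb5, from -0.29 to 0.59 for Psmb9 to Psmb6 and from -0.041 to 0.031 for Psmb10 to Psmb7. Signs changed for RT1-A1 (-0.30 at a pseudocount of 0.01, -0.19 with voom), RT1-CE16 (0.50 and 0.20), and, with median-of-ratios factors and quantile normalization, Psmb8 (-0.049 and -0.042) and Psmb10 (-0.038 and -0.042). With a library left out, log2 fold changes ranged from -1.81 to 0.40 for RT1-CE16, from -0.019 to 0.32 for RT1-CE3, from -0.18 to 0.37 for RT1-Db1, from -0.16 to 0.48 for RT1-A1, from -0.26 to 0.033 for RT1-M3-1, from -0.19 to 0.084 for Tap1, from -0.093 to 0.23 for Psmb8 and from -0.22 to 0.48 for Psmb9. The cause was not tested.

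Equal replicate numbers did not pair the libraries (correlation of deviations -0.126 to 0.108, 1 of 5 pairs above 0.1, 0 best with its own number). With the replicate block 10 class I genes, 1 class II gene and 3 processing genes were called, RT1-CE15 being called (adjusted p = 0.014) and RT1-Ba not. Members with fewer than 10 reads in a library had imprecise fold changes at this depth.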
